A study of Mus musculus with 32 samples.

Results

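Livers of mice given an anti-miR were compared 6 days and 3 days after the start of treatment. The samples were chosen by label alone and are the 20 anti-miR mice among the 32 mice of the study. The 12 mice given a scrambled oligonucleotide stand beside them where a day difference needs a control. All mice were outbred Crl:CD1(ICR) and were treated at 9 weeks of age, while the labels give an age of 10 weeks for every sample. A locked nucleic acid (LNA) was injected under the skin 2 times, at 25 mg/kg, on consecutive days. The anti-miR groups were LNA-miR802 females at day 6, LNA-miR802 females at day 3, LNA-miR1948 males at day 6 and LNA-miR1948 males at day 3, with 5 mice in each. LNA-negative (scrambled) females and males were taken at the same days, with 3 mice in each group. The anti-miR against miR-802-5p was given to females and that against miR-1948-5p to males, so treatment and sex cannot be told apart. The day 6 and day 3 libraries also belong to different library series in the labels, so the day and the series of libraries cannot be told apart.

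A microRNA guides the Argonaute complex to messenger RNAs that match its seed, and those messages are destabilised or less translated. An LNA oligonucleotide binds the microRNA tightly and occupies the seed. Mouse liver differs strongly between the sexes, because growth hormone is released in pulses in males and almost continuously in females. These patterns act through the transcription factor STAT5 and, further on, through BCL6 and CUX2, which repress female-biased and male-biased genes. Many of the genes under this control encode cytochrome P450 enzymes, sulfotransferases and the major urinary proteins (Mup), small lipocalins that carry pheromones into urine.

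The oligonucleotide given to females is shown against its target, because the comparison concerns the days after this sequence was delivered. Capitals mark the seed of the microRNA, bases 2 to 8 from its 5′ end, and the bases of LNA-802 that lie opposite it. The mature sequence is from RefSeq (GRCm38.p6, chr16:93369737-93369758, plus strand). LNA-802 lies opposite bases 2 to 16 of the microRNA, whereas the longest run of the scrambled oligonucleotide that could pair with it is 3 bases.
mmu-miR-802-5p: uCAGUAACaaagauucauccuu
LNA-802: gaatctttGTTACTG
scrambled LNA: acgtctatacgccca

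Messenger RNA was measured by strand-specific sequencing of poly(A) RNA, and each gene has 1 mean FPKM per group (fragments per kilobase of transcript, scaled to the mapped fragments of the library). The deposited table holds no value per mouse, so no error, test or p-value stands beside a day difference, and the depth of the libraries is unknown. A gene is therefore called higher or lower at day 6 only in the sense of its group means. Ratios of day 6 to day 3 are given as log2 of (mean FPKM + 1), which understates the change of low genes. Genes were kept when they reached 1 FPKM at either day, and a log2 ratio at or past 1 in either direction is called past 2-fold. The 4 anti-miR groups had 9085 to 9242 genes at 1 FPKM, out of 24197 in the table, and summed means of 200219 to 206757 FPKM. Liver and sex were as labelled. Albumin (Alb) averaged 20842 FPKM at day 6 and 22392 FPKM at day 3 in LNA-miR802 females, and 14069 FPKM at day 6 and 18315 FPKM at day 3 in LNA-miR1948 males. Xist, the RNA of the inactive X, was at 35.3 and 33.7 FPKM in the female groups and at 0.0328 and 0.0393 FPKM in the male groups. Poly(A) libraries do not measure a mature microRNA. Mir802, the hairpin gene of the microRNA targeted in females, averaged 0.316 FPKM at day 6 and 0.388 FPKM at day 3.

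Few genes separated the days by 2-fold. In LNA-miR802 females, 18 of 9384 genes lay past 2-fold (0.192%), 10 of them higher at day 6 (0.107%) and 8 lower (0.0853%). In LNA-miR1948 males, 47 of 9256 genes did (0.508%), 23 higher (0.248%) and 24 lower (0.259%). Scrambled mice, with 3 mice a group in place of 5, had 38 of 9478 genes past 2-fold in females (0.401%), 15 higher (0.158%) and 23 lower (0.243%). Scrambled males had 32 of 9235 (0.347%), 9 higher (0.0975%) and 23 lower (0.249%). At a 1.5-fold line the counts were 97 in LNA-miR802 females (1.03%), 149 in LNA-miR1948 males (1.61%), 157 in scrambled females (1.66%) and 130 in scrambled males (1.41%). Higher at day 6 past that line were 60 genes in scrambled females (0.633%) and 49 in scrambled males (0.531%), and lower were 97 (1.02%) and 81 (0.877%). At both lines, anti-miR females had fewer such genes than scrambled females and anti-miR males had more than scrambled males, and these differences were not tested. The 5th and the 95th percentile of the log2 ratios were -0.20 and 0.18 in LNA-miR802 females and -0.23 and 0.21 in LNA-miR1948 males. Medians over all genes were -0.01 and 0.02. Against scrambled mice of the same day, the authors' deposited table called 59 of the 9384 genes in LNA-miR802 females at day 6 (0.629%) and 2 at day 3 (0.0213%), at an edgeR adjusted p under 0.05. In LNA-miR1948 males the authors' deposited table called 23 of the 9256 genes at day 6 (0.248%) and 10 at day 3 (0.108%). Just inside the line of 1 FPKM lay Frat1 in females and the hairpin gene Mir707 in males, and just outside it Homer1 and Inadl, all at 1.00 FPKM after rounding.

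The genes that differed most between the days were largely not the same in both treatments. C1rb, which encodes a complement protease of the C1r type, was the only gene past 2-fold in the same direction in both. It averaged 3.53 FPKM at day 6 and 1.16 FPKM at day 3 in LNA-miR802 females, and 5.16 FPKM at day 6 and 1.39 FPKM at day 3 in LNA-miR1948 males. The corresponding scrambled means stayed between 1.00 and 1.69 FPKM. Against scrambled mice at day 6, C1rb passed in neither treatment in the authors' deposited table. Its ratios there were 3.31 in females (edgeR adjusted p = 0.934) and 3.22 in males. Camk2b, a calcium/calmodulin-dependent kinase, was the only gene past 2-fold in opposite directions. It averaged 3.86 FPKM at day 6 and 1.12 FPKM at day 3 in LNA-miR802 females, against 0.561 FPKM at day 6 and 2.63 FPKM at day 3 in LNA-miR1948 males. Camk2b was kept in males through day 3 alone, so the minimum of 1 FPKM fixed its male direction in advance. Over 9067 genes kept in both treatments, the log2 ratios had a Pearson r of 0.20 and a Spearman rho of 0.18. These are a description across genes, which share their libraries, and no mouse enters both ratios.

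At the 1.5-fold line, 18 genes differed in the same direction in both treatments and 6 in opposite directions. Mup genes (Mup1, Mup9, Mup13, Mup14 and Mup17) made up 5 of the 12 that were higher in both. Rarres1, a retinoic acid-responsive gene, and the adhesion receptor gene Ceacam2 were also among these 12. Lower in both were Mt1 (metallothionein), Igfbp1 (insulin-like growth factor binding protein), Tsc22d3 (the glucocorticoid-induced leucine zipper), and the cytochrome P450 genes Cyp2b10, Cyp2c69 and Cyp4a14. The log2 ratio of Cyp4a14 was -0.70 in LNA-miR802 females and -2.97 in scrambled females, which averaged 1.51 FPKM at day 6 and 18.7 FPKM at day 3. Over scrambled females at day 6, Cyp4a14 rose to a ratio of 8.10 in the authors' deposited table (adjusted p by edgeR = 0.031). Tsc22d3 averaged 13.3 FPKM at day 6 and 20.5 FPKM at day 3 in females, and 8.86 FPKM at day 6 and 18.6 FPKM at day 3 in males. Cyp2a5, a coumarin hydroxylase, ran opposite ways, with log2 ratios of -0.72 in LNA-miR802 females and 1.80 in LNA-miR1948 males.

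**Figure D1:**
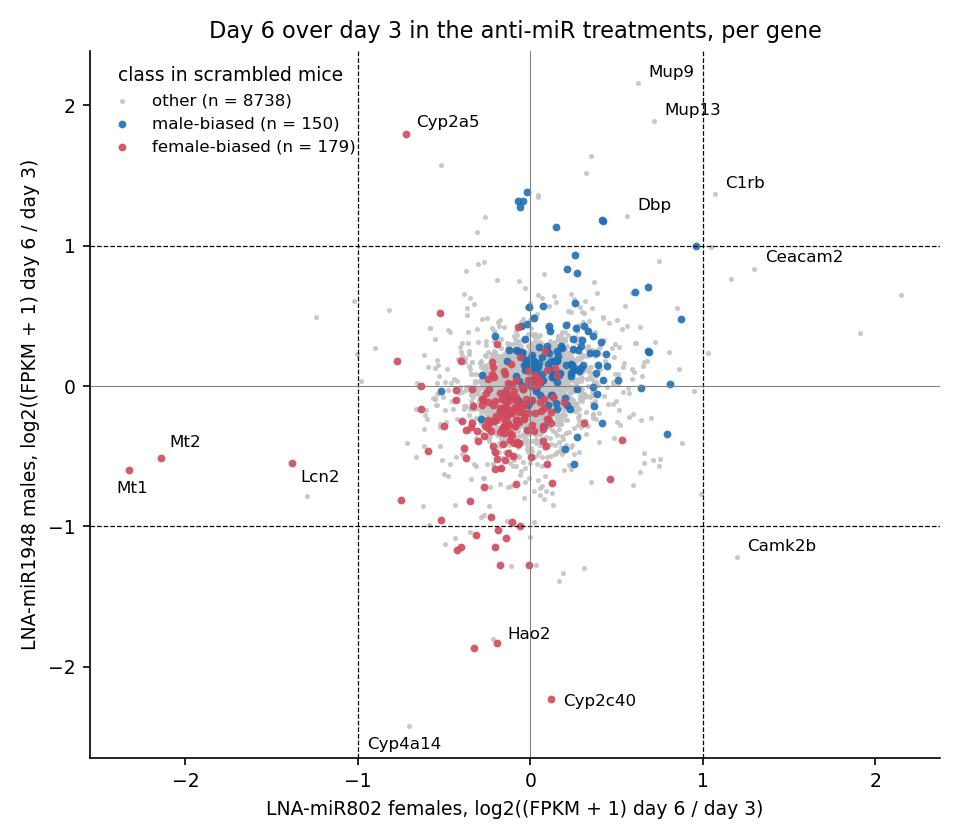
Log2 ratio of day 6 to day 3, on mean FPKM + 1, for each gene kept in both treatments, LNA-miR802 females on the horizontal and LNA-miR1948 males on the vertical axis. Blue and red points are genes male-biased or female-biased in scrambled mice, dashed lines mark 2-fold, and C1rb and Camk2b alone lie past both lines. Camk2b was kept in LNA-miR1948 males through day 3 alone.

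Sex-biased genes of liver separated by class in both treatments. The classes came from scrambled mice alone, so no anti-miR mouse was used to form them. A gene was male-biased or female-biased when the authors' deposited table gave an edgeR adjusted p under 0.05 for scrambled males over scrambled females at both days, in the same direction. This held for 222 male-biased genes (0.917% of 24197) and 283 female-biased genes (1.17%). In LNA-miR802 females, 115 of 150 male-biased genes at 1 FPKM (76.7%) were higher at day 6, with a median log2 ratio of 0.12. In the same females, 186 of 229 female-biased genes (81.2%) were lower at day 6, with a median of -0.15. In LNA-miR1948 males, 146 of 188 male-biased genes (77.7%) were higher at day 6, with a median of 0.15, and 149 of 180 female-biased genes (82.8%) were lower, with a median of -0.22. Among all genes kept, 45.2% had a positive ratio in the females and 57.5% in the males. Most of these shifts were small. Past 1.5-fold lay 9 male-biased genes in LNA-miR802 females, all higher, and 18 female-biased genes, all lower, where all genes gave 0.565% higher and 0.469% lower.

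In LNA-miR1948 males, 25 male-biased genes were higher past 1.5-fold and none was lower, against 0.724% and 0.886% of all genes. Of the female-biased genes, 23 were lower past 1.5-fold, and Cyp2a5 alone was higher. Sex-biased genes made up much of the male 2-fold set. Of the 23 genes higher past 2-fold, 9 were male-biased and 1 was female-biased, and of the 24 lower, none was male-biased and 11 were female-biased. The 11 include Cyp2b9, Cyp2a4, Cyp3a41b and Cyp3a41a, kept through day 3 alone, so the minimum of 1 FPKM fixed their direction. All counts of female-biased genes lower in these males include them. With these classes, scrambled mice did not show the same split. Their male-biased genes had medians of 0.01 in females and -0.06 in males, and their female-biased genes 0.04 and -0.0044. With classes called at day 6 alone, scrambled males had medians of 0.01 for male-biased and -0.09 for female-biased genes. Scrambled females then had -0.05 and 0.09. The scrambled ratios are not independent of the classes, since the same mice set both, and the difference between the anti-miR and scrambled ratios was not tested.

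**Figure D2:**
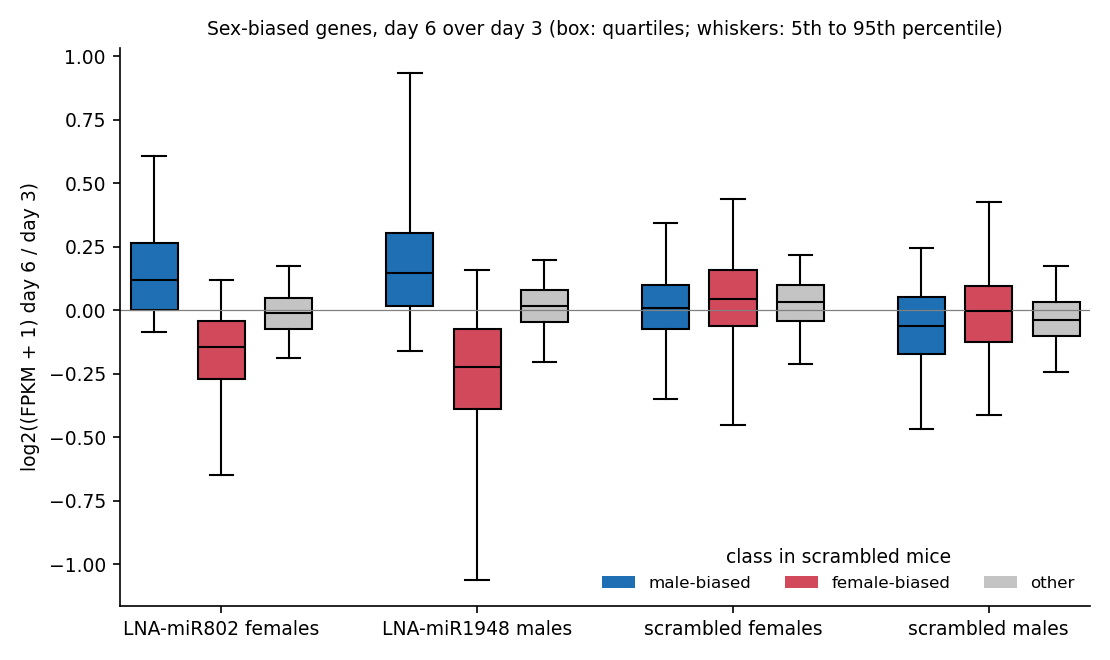
Log2 ratios of day 6 to day 3 (mean FPKM + 1) of male-biased, female-biased and other genes in each treatment, anti-miR groups at the left and scrambled groups at the right. Boxes span the quartiles around the median and whiskers the 5th to 95th percentile of genes; in both anti-miR treatments the male-biased median is above 0 (0.12 and 0.15) and the female-biased median below it (-0.15 and -0.22).

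A second list of female-biased genes, written from general knowledge of mouse liver, was nearly all lower at day 6. In LNA-miR1948 males, 19 of its 38 genes reached 1 FPKM, and all 19 had a lower mean at day 6, with a median log2 ratio of -0.81 beside 0.02 for all genes. The list's median was 0.53 over 15 genes in scrambled males. Past 2-fold lay 8 of the 19, against 0.259% of all genes. Of the 8, Cyp2b9, Cyp2a4, Cyp3a41b and Cyp3a41a were kept through day 3 alone. Their day 6 means were 0.537, 0.994, 0.243 and 0.0420 FPKM, so the minimum of 1 FPKM fixed their direction in advance. The counts of 19 and 8 and the median include these genes. Any other list gene kept through day 3 alone could likewise only be lower. Hao2, a peroxisomal hydroxyacid oxidase (chr3:98678441-98697153, mm9), averaged 1.52 FPKM at day 6 and 7.95 FPKM at day 3. Scrambled males had 8.90 FPKM at day 6 and 2.04 FPKM at day 3, the opposite order. The authors' deposited table gives Hao2 in LNA-miR1948 over scrambled males at a ratio of 0.165 at day 6 (edgeR adjusted p = 0.0145) and 3.87 at day 3 (edgeR adjusted p = 9.48e-05). The direction of that contrast therefore differed between the days, and scrambled means differed between the days as well.

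The P450 genes Cyp2c40 and Cyp2b9 were lower too. Cyp2c40 averaged 2.70 FPKM at day 6 and 16.4 FPKM at day 3 in LNA-miR1948 males, and 19.9 FPKM at day 6 and 10.3 FPKM at day 3 in scrambled males. Cyp2b9 averaged 0.537 FPKM at day 6 and 4.60 FPKM at day 3 in LNA-miR1948 males, and 3.25 FPKM at day 6 and 1.95 FPKM at day 3 in scrambled males. The authors' deposited table has both falling in LNA-miR1948 males at day 6 relative to scrambled males, with edgeR adjusted p of 0.046 for Cyp2c40 and 0.0203 for Cyp2b9. Cyp4a14 and Cyp4a10, fatty acid hydroxylases that PPARA also controls, averaged 1.63 and 2.98 FPKM at day 6 and 13.05 and 12.9 FPKM at day 3. In the authors' deposited table neither passed at day 6 (edgeR adjusted p = 0.0673 for each). Scrambled mice did not bear out a female bias of these Cyp4a genes. Cyp4a14 was higher in scrambled males than in scrambled females at day 6, at a ratio of 11.98 (edgeR adjusted p = 0.0030). At day 3 its ratio was 0.648 and did not pass. Cyp4a10 passed on neither day, at ratios of 1.25 at day 6 and 0.384 at day 3. Cyp3a41b, Cyp2a4 and Cyp3a41a completed the 8, with log2 ratios of -1.28, -1.17 and -1.06.

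LNA-miR802 females express the same list at far higher levels, and their summed means were 1799.6 FPKM at day 6 and 2375 FPKM at day 3. Of 36 genes at 1 FPKM, 33 were lower at day 6, with a median log2 ratio of -0.31, and none was past 2-fold. Scrambled females had a median of 0.17. The 9 genes past 1.5-fold were all lower. Sult2a1, a hydroxysteroid sulfotransferase, averaged 29.4 FPKM at day 6 and 56.4 FPKM at day 3, while scrambled females had 76.2 and 74.9 FPKM. Its relatives Sult2a2 and Sult2a6 had log2 ratios of -0.65 and -0.62. Cyp3a16 averaged 30.2 FPKM at day 6 and 50.7 FPKM at day 3, and Cyp3a44 averaged 50.5 FPKM at day 6 and 83.2 FPKM at day 3. Cyp2c69 averaged 92.1 FPKM at day 6 and 156 FPKM at day 3, against 156 and 141 FPKM in scrambled females. At day 6 the means of these 3 P450 genes lay below the scrambled means of that day, and at day 3 above them. Genes of the Cyp, Sult and Mup families have close copies, among which the counting could divide reads, so their separate values are uncertain.

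The male-biased list lay the other way, with larger ratios in males. In LNA-miR1948 males, 27 of its 30 genes reached 1 FPKM and 23 were higher at day 6, with a median log2 ratio of 0.48, whereas scrambled males had a median of -0.10. The 6 past 2-fold were all higher, against 0.248% of all genes. Cyp7b1, an oxysterol hydroxylase, averaged 89.6 FPKM at day 6 and 35.3 FPKM at day 3, with 39.98 and 50.7 FPKM in scrambled males. It rose 2.14-fold over scrambled males at day 6 in the authors' deposited table (adjusted p by edgeR = 0.00839). Selenbp2, a selenium-binding protein, averaged 258 FPKM at day 6 and 106 FPKM at day 3, and scrambled males had 212 and 283 FPKM. Here the low value was the anti-miR mean at day 3, below both scrambled means. The same held for Elovl3, a fatty acid elongase, with 84.2 FPKM at day 6 and 36.6 FPKM at day 3 against 54.5 and 50.3 FPKM in scrambled males. It held as well for C6, a component of the membrane attack complex, with 41.9 FPKM at day 6 and 18.6 FPKM at day 3 against 32.99 and 35.4 FPKM. Against scrambled males at day 3, Selenbp2, Elovl3 and C6 did not pass in the authors' deposited table. The edgeR adjusted p was 0.378 for Selenbp2 and 0.122 for C6. Cyp4a12b, a fatty acid hydroxylase, averaged 14.7 FPKM at day 6 and 5.54 FPKM at day 3. Bcl6, the repressor of female-biased genes in male liver, averaged 5.15 FPKM at day 6 and 1.88 FPKM at day 3, with 2.02 and 2.16 FPKM in scrambled males. Scrambled mice did not bear out a male bias of Bcl6. Its ratio in scrambled males over scrambled females was 1.52 at day 6 and 0.631 at day 3 in the authors' deposited table. Neither passed (edgeR adjusted p = 0.315 and 0.479).

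In LNA-miR802 females, 21 genes of the male-biased list reached 1 FPKM and 16 were higher at day 6, with a median log2 ratio of 0.21. Past 1.5-fold were 3 genes, all higher, against 0.565% of all genes. Scrambled females also had 3 list genes higher past 1.5-fold and 1 lower, with a median of 0.02. Hsd3b5, a steroid dehydrogenase, averaged 21.2 FPKM at day 6 and 11.1 FPKM at day 3, against 9.33 and 7.67 FPKM in scrambled females. Nudt7, a peroxisomal coenzyme A diphosphatase, averaged 68.4 FPKM at day 6 and 42.2 FPKM at day 3. Slco1a1, an organic anion transporter, averaged 82.4 FPKM at day 6 and 52.4 FPKM at day 3, while scrambled females had 79.9 and 82.0 FPKM. Bcl6 ran the other way in these females, with a log2 ratio of -0.31. Cux2, the female-biased repressor, averaged 2.33 FPKM at day 6 and 1.76 FPKM at day 3. Cish, a suppressor of cytokine signalling that STAT5 induces, was past 2-fold in females, with 7.63 FPKM at day 6 and 3.22 FPKM at day 3. In males Cish averaged 6.54 FPKM at day 6 and 5.39 FPKM at day 3. Socs2, another STAT5-induced inhibitor of growth hormone signalling, averaged 13.3 FPKM at day 6 and 9.82 FPKM at day 3 in females, and 4.46 FPKM at day 6 and 6.22 FPKM at day 3 in males. The growth hormone and STAT5 list had medians of 0.03 over 18 genes in females and -0.12 over 16 genes in males.

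Mup genes were among those with the highest ratios in males. Of 21 listed, 16 reached 1 FPKM in LNA-miR1948 males and 14 of these were higher at day 6, with a median log2 ratio of 0.69. Past 2-fold were 5, all higher, against 0.248% of all genes. Mup15 averaged 21.96 FPKM at day 6 and 1.43 FPKM at day 3, with 0.0663 and 0.0678 FPKM in scrambled males. Mup9 averaged 80.3 FPKM at day 6 and 17.2 FPKM at day 3, with 3.50 FPKM at day 6 and 27.4 FPKM at day 3 in scrambled males. Mup13, Mup21 and Mup7 were the others past 2-fold, at log2 ratios of 1.89, 1.31 and 1.17. The most abundant of the family, Mup3, had a log2 ratio of 0.15, with 2682 FPKM at day 6 and 2412 FPKM at day 3. Mup20, which encodes the male pheromone darcin, averaged 1534 FPKM at day 6 and 802.4 FPKM at day 3, against 555 FPKM at day 6 and 1174 FPKM at day 3 in scrambled males. For Mup9, Mup17 and Mup20 the scrambled means ran opposite to the anti-miR means, and the Mup list had a median of -0.57 in scrambled males. Mup9 rose over scrambled males at day 6 in the authors' deposited table, at a ratio of 22.2 and an edgeR adjusted p of 0.00021. Mup17 did too, at a ratio of 6.81 and an edgeR adjusted p of 0.00747 in the authors' deposited table, and neither passed there at day 3 (adjusted p = 1 for each).

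In LNA-miR802 females, 15 Mup genes reached 1 FPKM and 13 were higher at day 6, with a median of 0.42. The scrambled females had a median of 0.33, with 2 genes higher and 0 lower past 1.5-fold, beside 0.633% and 1.02% of all genes. In LNA-miR802 females 6 were higher and 1 was lower past that line, beside 0.565% and 0.469% of all genes. Mup17 was higher past 2-fold, with 7.31 FPKM at day 6 and 3.01 FPKM at day 3. Mup12 was lower past 2-fold, with 5.44 FPKM at day 6 and 12.1 FPKM at day 3, whereas scrambled females had 10.7 FPKM at day 6 and 0.601 FPKM at day 3. The sequences upstream of Mup9 and Mup15, the pair with the highest male ratios of the family, are shown because the genes are close copies. The 250 bases before each gene start, from RefSeq (GRCm38.p6), are chr4:60421953-60422202 for Mup9 and chr4:61439705-61439954 for Mup15, both on the minus strand. Outside gaps, 239 of 240 aligned bases were identical (99.6%). Capitals mark the TATA box sequence TATATAA, which was searched on both strands and is held by 3.04% of 32841 promoter windows of this length.
Mup9: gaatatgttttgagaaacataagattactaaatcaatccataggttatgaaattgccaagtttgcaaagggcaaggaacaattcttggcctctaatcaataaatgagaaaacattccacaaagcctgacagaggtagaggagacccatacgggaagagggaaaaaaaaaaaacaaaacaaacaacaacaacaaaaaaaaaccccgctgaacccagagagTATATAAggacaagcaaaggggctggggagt
Mup15: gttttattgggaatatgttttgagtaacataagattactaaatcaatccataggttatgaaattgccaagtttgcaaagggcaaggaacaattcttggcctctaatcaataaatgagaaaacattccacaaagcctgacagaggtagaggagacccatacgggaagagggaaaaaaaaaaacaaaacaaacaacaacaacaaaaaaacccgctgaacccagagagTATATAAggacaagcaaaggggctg

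**Figure D3:**
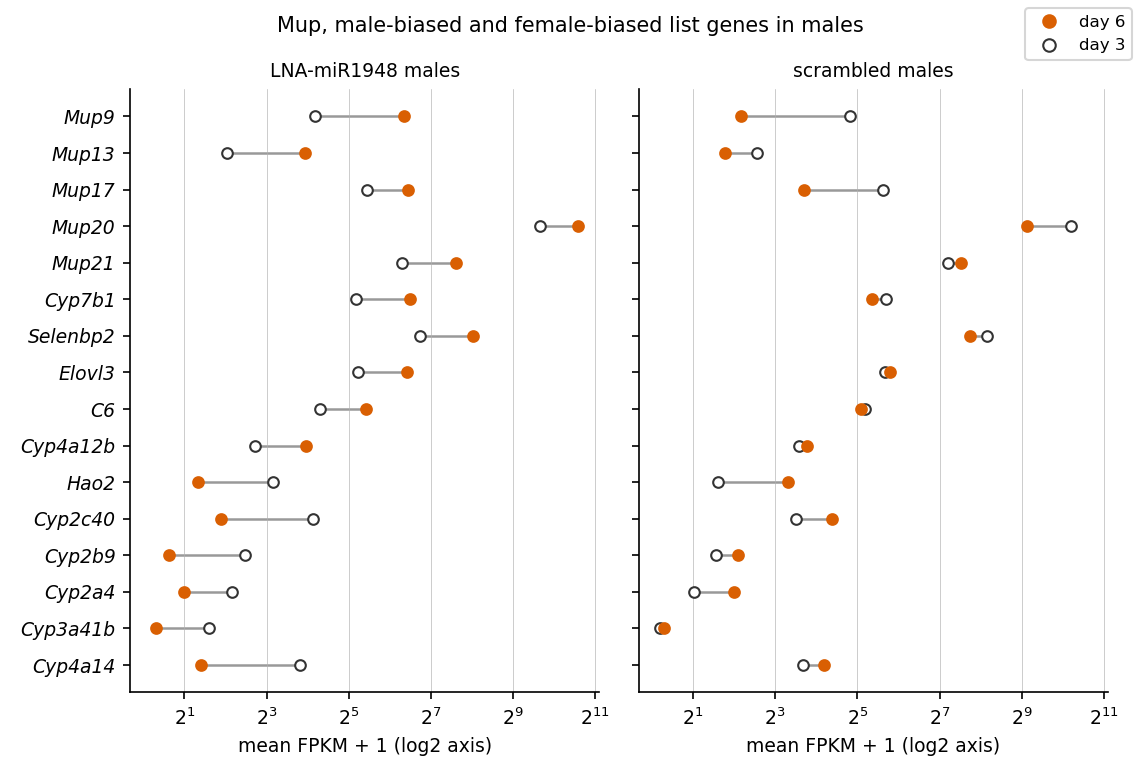
Mean FPKM + 1 on a log2 axis at day 6 (filled) and day 3 (open) in LNA-miR1948 males at the left and scrambled males at the right. Mup genes and genes of the male-biased list lie to the right at day 6 in the anti-miR panel. Genes of the female-biased list lie to the left, while several genes, such as Mup9 and Hao2, run the opposite way in scrambled males.

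In LNA-miR802 females the lowest ratios included those of the metallothioneins, small proteins that bind zinc and copper. Mt1 (chr8:96702988-96704227, mm9) averaged 8.86 FPKM at day 6 and 48.5 FPKM at day 3, a log2 ratio of -2.33. Mt2, its neighbour on the same chromosome, averaged 4.86 FPKM at day 6 and 24.9 FPKM at day 3. In scrambled females Mt1 averaged 69.4 FPKM at day 6 and 57.2 FPKM at day 3, and Mt2 averaged 36.5 FPKM at day 6 and 51.0 FPKM at day 3. The day 6 mean of anti-miR females was thus the low value among the 4 female groups for both genes. The authors' deposited table has both falling relative to scrambled females at day 6, Mt1 to a ratio of 0.129 (edgeR adjusted p = 1.6e-29) and Mt2 to 0.135 (edgeR adjusted p = 3.71e-06). Neither passed at day 3 in the authors' deposited table, where each had an edgeR adjusted p of 1. Both belong to the female-biased class of the scrambled mice. LNA-miR1948 males had low levels, with Mt1 at 4.90 FPKM at day 6 and 7.93 FPKM at day 3 and Mt2 at 2.55 FPKM at day 6 and 4.06 FPKM at day 3. Their log2 ratios were -0.60 and -0.51, so both treatments had lower metallothionein means at day 6. Over scrambled males, Mt2 rose at day 3 in the authors' deposited table, to a ratio of 3.79 (adjusted p by edgeR = 0.0239), and did not pass at day 6, at a ratio of 1.48.

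The windows upstream of Mt1 and Mt2 are shown because both genes are known to be induced by metals through metal response elements, bound by MTF1. The windows are the 250 bases before the gene start from RefSeq (GRCm38.p6), chr8:94178839-94179088 for Mt1 and chr8:94172368-94172617 for Mt2, on the plus strand. Capitals mark the core TGCACNC or TGCGCNC, searched on both strands, with no match overlapping another. Within these windows Mt1 holds 1 match and Mt2 holds 3. Sequence after the annotated gene starts was not searched, so the counts are not the number of elements of either gene. Of 32841 promoter windows of this length, 21.4% hold at least 1 match and 1.26% hold 3 or more. A match describes the letters alone.
Mt1: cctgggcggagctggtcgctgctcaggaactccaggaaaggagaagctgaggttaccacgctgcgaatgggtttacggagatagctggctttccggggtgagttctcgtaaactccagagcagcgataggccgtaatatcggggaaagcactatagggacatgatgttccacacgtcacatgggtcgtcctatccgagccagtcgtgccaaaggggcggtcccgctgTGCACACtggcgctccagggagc
Mt2: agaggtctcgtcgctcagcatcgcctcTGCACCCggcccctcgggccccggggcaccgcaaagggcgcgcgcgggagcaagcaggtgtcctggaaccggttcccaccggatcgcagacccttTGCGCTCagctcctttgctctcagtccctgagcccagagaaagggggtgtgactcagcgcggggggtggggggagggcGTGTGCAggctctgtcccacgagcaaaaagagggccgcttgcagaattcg

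Acute phase genes, which hepatocytes secrete in inflammation, included further genes with lower means in females. Of 30 listed, 29 reached 1 FPKM in LNA-miR802 females, and 4 were lower past 2-fold, against 0.0853% of all genes. These were Mt1, Mt2, Lcn2 and Saa1, and the list as a whole had a median of -0.04. Lcn2, which sequesters bacterial iron carriers, averaged 3.42 FPKM at day 6 and 10.5 FPKM at day 3, with 7.42 and 9.99 FPKM in scrambled females. Saa1, a serum amyloid protein of lipoproteins, averaged 9.19 FPKM at day 6 and 19.5 FPKM at day 3, with 25.9 and 21.5 FPKM in scrambled females. It fell relative to scrambled females at day 6 in the authors' deposited table, to a ratio of 0.360 (edgeR adjusted p = 1.99e-05). Saa2 averaged 3.76 FPKM at day 6 and 8.41 FPKM at day 3. In males Saa1 ran the other way, with 52.3 FPKM at day 6 and 44.5 FPKM at day 3, and none of 28 acute phase genes lay past 2-fold. Igfbp1, a fasting-induced gene, averaged 4.19 FPKM at day 6 and 11.7 FPKM at day 3 in LNA-miR802 females. Scrambled females had 4.73 FPKM at day 6 and 17.7 FPKM at day 3, so this day difference appeared without the anti-miR too.

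**Figure D4:**
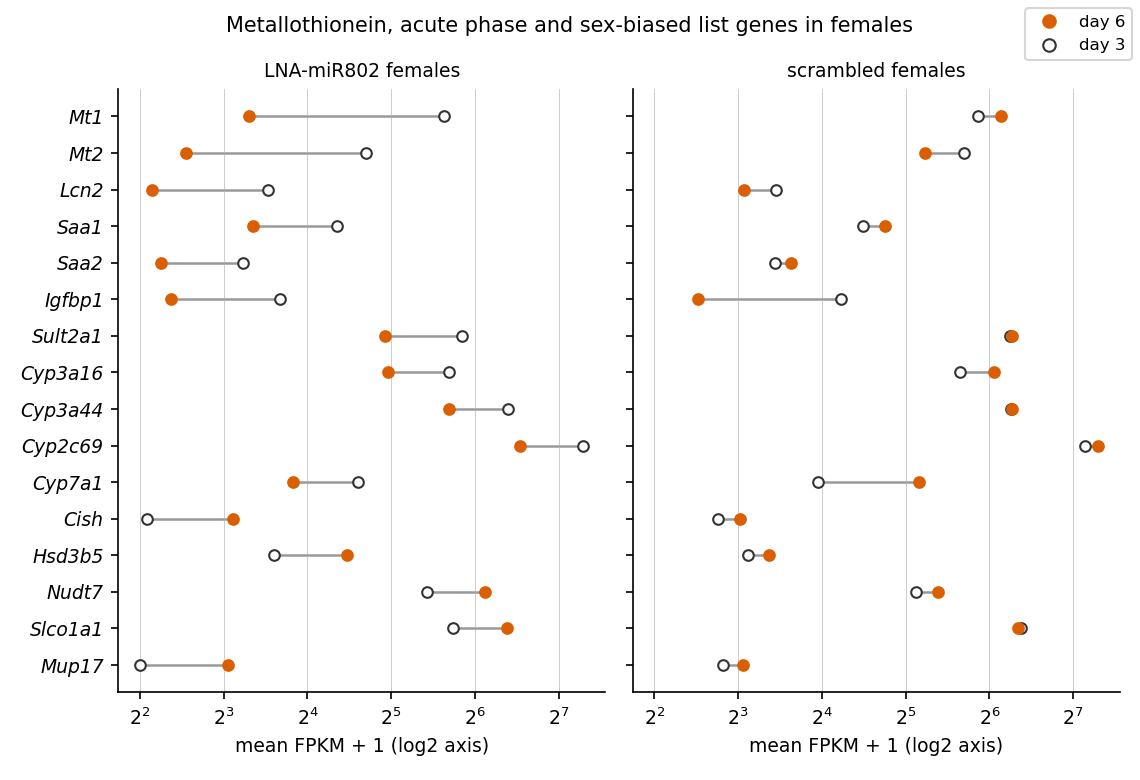
Mean FPKM + 1 on a log2 axis at day 6 (filled) and day 3 (open) in LNA-miR802 females at the left and scrambled females at the right. Mt1, Saa1 and Sult2a1 are lower at day 6 in the anti-miR panel and slightly higher in the scrambled panel, whereas Igfbp1 is lower at day 6 in both.

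At the upper end in LNA-miR802 females, most genes were little characterised or in families with copies. Gm30505, a predicted gene, averaged 6.04 FPKM at day 6 and 0.588 FPKM at day 3, with 2.65 FPKM at day 6 and 0.577 FPKM at day 3 in scrambled females. LOC100048884, which lies among the Mup genes of chromosome 4, averaged 56.2 FPKM at day 6 and 14.2 FPKM at day 3. Ceacam2 averaged 5.23 FPKM at day 6 and 1.54 FPKM at day 3, and Rarres1 averaged 16.4 FPKM at day 6 and 6.75 FPKM at day 3. None of these passed against scrambled females at day 6 in the authors' deposited table, where edgeR gave each an adjusted p of 1.

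Genes induced by glucocorticoids were lower at day 6 in males. The list holds 17 genes, and all 16 at 1 FPKM had a lower mean at day 6 in LNA-miR1948 males, with a median log2 ratio of -0.53. Scrambled males had a median of -0.21, and LNA-miR802 females -0.06. Tsc22d3 had a male log2 ratio of -0.99, and Per1, a clock gene that glucocorticoids induce, averaged 0.238 FPKM at day 6 and 1.47 FPKM at day 3 in these males. Per1 is among the 16 and was kept through day 3 alone, so the minimum of 1 FPKM fixed its direction. Dusp1, a phosphatase that switches off MAP kinases, averaged 2.81 FPKM at day 6 and 5.38 FPKM at day 3. It fell relative to scrambled males at day 6 in the authors' deposited table (a ratio of 0.576, edgeR adjusted p = 0.00123). Genes of gluconeogenesis and fasting had a male median of -0.29 over 18 genes, and 6 were lower past 1.5-fold, against 0.886% of all genes. The scrambled males had a median of -0.25, with 15 of 18 genes lower and 2 past 1.5-fold. Pck1 and G6pc, which encode the enzymes that commit carbon to glucose and release it, averaged 158 and 54.5 FPKM at day 6 and 276 and 92.95 FPKM at day 3. In scrambled males Pck1 averaged 142 FPKM at day 6 and 299 FPKM at day 3, so this pair of means differed between the days without the anti-miR as well. In LNA-miR802 females Pck1 averaged 244 FPKM at day 6 and 231 FPKM at day 3.

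Some metabolic genes lower past 2-fold in LNA-miR1948 males were lower in scrambled males too, and others were not. Alas1, the rate-limiting enzyme of heme synthesis, averaged 10.1 FPKM at day 6 and 26.2 FPKM at day 3, and 7.56 FPKM at day 6 and 22.01 FPKM at day 3 in scrambled males. Mfsd2a, a lysophospholipid transporter, averaged 1.09 FPKM at day 6 and 4.46 FPKM at day 3, and 1.68 FPKM at day 6 and 5.50 FPKM at day 3 in scrambled males. Lpin1, a phosphatidate phosphatase, averaged 4.02 FPKM at day 6 and 11.1 FPKM at day 3, with 5.76 and 8.28 FPKM in scrambled males. The P450 gene Cyp2c39 averaged 13.6 FPKM at day 6 and 31.3 FPKM at day 3, whereas scrambled males had 27.7 FPKM at day 6 and 20.95 FPKM at day 3, the opposite order. Acnat2, an acyl-CoA N-acyltransferase gene, and Cyp2c38 had log2 ratios of -1.14 and -1.08 in LNA-miR1948 males and 0.22 and 0.52 in scrambled males. Dbp, a circadian transcription factor, was higher, with 3.58 FPKM at day 6 and 0.978 FPKM at day 3 in LNA-miR1948 males, against 0.877 FPKM at day 6 and 2.15 FPKM at day 3 in scrambled males. The clock list had medians of 0.13 in LNA-miR1948 males and 0.01 in LNA-miR802 females.

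Xenobiotic genes under the receptors CAR and PXR were mostly lower at day 6 in both treatments. Of 27 at 1 FPKM in LNA-miR802 females, 20 were lower, with a median of -0.18, and of 25 in LNA-miR1948 males, 19 were lower, with a median of -0.24. Scrambled medians were -0.0017 in females and 0.19 in males. The list shares genes with the female-biased list. Cyp2b10, the classical CAR target, averaged 6.99 FPKM at day 6 and 11.3 FPKM at day 3 in females, and 2.43 FPKM at day 6 and 5.201 FPKM at day 3 in males. The receptor genes Nr1i3 (CAR) and Nr1i2 (PXR) had log2 ratios of -0.34 and -0.18 in females and -0.26 and -0.41 in males. Cyp2a5, which is not on this list, averaged 27.6 FPKM at day 6 and 7.23 FPKM at day 3 in LNA-miR1948 males. Over scrambled males at day 6 it rose to a ratio of 4.59 in the authors' deposited table (adjusted p by edgeR = 0.00021). In LNA-miR802 females the authors' deposited table has it falling at day 6 relative to scrambled females, to a ratio of 0.531 (edgeR adjusted p = 0.00186).

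The enzymes of cholesterol synthesis lay on different sides in the 2 treatments, by small amounts. In LNA-miR802 females 21 of 24 genes were lower at day 6, with a median of -0.13, and in LNA-miR1948 males 22 of 24 were higher, with a median of 0.21. Scrambled medians were 0.43 in females and 0.12 in males. Cyp51, the lanosterol demethylase, averaged 13.4 FPKM at day 6 and 8.20 FPKM at day 3 in males. Dhcr7, which completes cholesterol, averaged 16.05 FPKM at day 6 and 20.6 FPKM at day 3 in females. Cyp7a1, which starts the classical route from cholesterol to bile acids, averaged 13.2 FPKM at day 6 and 23.2 FPKM at day 3 in LNA-miR802 females. Scrambled females had 34.7 FPKM at day 6 and 14.5 FPKM at day 3, the opposite order.

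Genes of the unfolded protein response, which enlarge the folding capacity of the endoplasmic reticulum, were higher at day 6 in both treatments. This held for 21 of 23 genes in LNA-miR802 females (median 0.19) and 21 of 24 in LNA-miR1948 males (median 0.27), beside all-gene medians of -0.01 and 0.02. Hspa5, which encodes the chaperone BiP, averaged 238 FPKM at day 6 and 188 FPKM at day 3 in females, and 222 FPKM at day 6 and 161 FPKM at day 3 in males. Scrambled means were 136 FPKM at day 6 and 176 FPKM at day 3 in females, and 169 FPKM at day 6 and 140 FPKM at day 3 in males. Creld2, a secreted stress protein, had log2 ratios of 0.55 and 0.57 in the anti-miR females and males. Dnajb9, a cochaperone of BiP, averaged 25.7 FPKM at day 6 and 14.3 FPKM at day 3 in males. No gene of the list lay past 2-fold, and the scrambled medians were -0.20 in females and 0.08 in males.

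Genes of the interferon response and of Kupffer cells were mostly lower at day 6 in LNA-miR1948 males. Of the interferon-stimulated genes, 26 of 28 at 1 FPKM were lower in LNA-miR1948 males, with a median of -0.37, and 19 of 29 were lower in LNA-miR802 females, with a median of -0.09. Scrambled males had a median of 0.03 and scrambled females -0.25, with 9 genes lower past 1.5-fold in those females. Irf7, the interferon regulatory factor that amplifies the response, averaged 2.53 FPKM at day 6 and 6.42 FPKM at day 3 in LNA-miR1948 males, with 2.43 and 2.46 FPKM in scrambled males. Kupffer cell markers, from the macrophages resident in liver, were lower in 15 of 15 genes in males, with a median of -0.41. Their summed means were 103 FPKM at day 6 and 139 FPKM at day 3 in LNA-miR1948 males, and 105 and 104 FPKM in scrambled males. In LNA-miR802 females 11 of 16 were lower and the sums were 133 FPKM at day 6 and 141 FPKM at day 3, with 159.8 and 152.97 FPKM in scrambled females. Clec4f, a lectin of Kupffer cells, averaged 10.2 FPKM at day 6 and 14.8 FPKM at day 3 in males. In bulk liver, fewer cells of a type and less RNA per cell cannot be told apart. Erythroid markers, mostly globins with near-identical copies, were lower in 7 of 7 genes in males, with sums of 105 FPKM at day 6 and 136 FPKM at day 3, and lower in 4 of 7 in LNA-miR802 females. Scrambled males were also lower in 7 of 7, with sums of 112 FPKM at day 6 and 126 FPKM at day 3, and scrambled females higher in 7 of 7. Sinusoidal endothelial markers summed to 93.3 FPKM at day 6 and 104 FPKM at day 3 in males, and stellate markers to 68.9 and 78.6 FPKM. In scrambled males these sums were 91.5 FPKM at day 6 and 94.6 FPKM at day 3, and 71.1 and 75.3 FPKM. The part of these cell types in the male day ratios of interferon genes was not tested.

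Marker lists of muscle, adipocytes, neutrophils, B cells and the T and NK lineage had 0 genes at 1 FPKM in the anti-miR groups. Exocrine pancreas had 1 gene at that level, and 10 of its 14 markers were listed at 0 at both days in LNA-miR802 females. Hepatocyte markers had medians of -0.07 in females and -0.05 in males.

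Genes of housekeeping assemblies stayed within 1.5-fold between the days in both treatments. The 76 cytosolic ribosomal protein genes had medians of -0.07 in LNA-miR802 females and -0.06 in LNA-miR1948 males, and none lay past 1.5-fold. The 32 proteasome subunit genes were lower at day 6 in 32 of 32 cases in females (median -0.09), and higher in 29 of 32 in males (median 0.07). Their ratios stayed between -0.20 and 0.13. Scrambled medians of the proteasome list were -0.01 in females and -0.06 in males. Nuclear-encoded respiratory chain genes had medians of -0.06 over 74 genes in females and 0.03 in males.

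**Figure D5:**
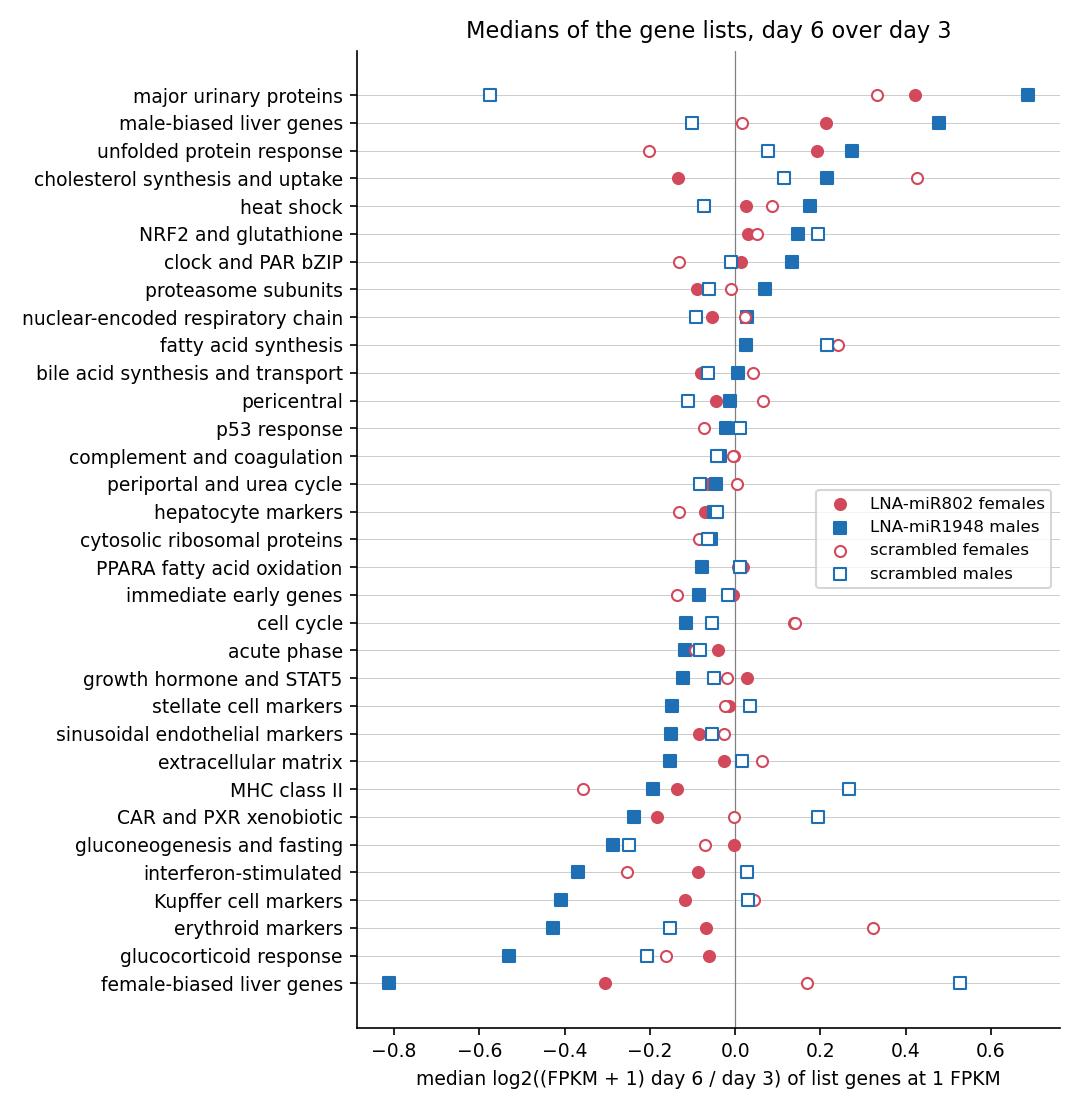
Median log2 ratio of day 6 to day 3 (mean FPKM + 1) of each gene list over its genes at 1 FPKM, filled for anti-miR and open for scrambled mice, circles for females and squares for males. Mup, male-biased and unfolded protein response lists lie right of 0 and the female-biased list left of 0 in both anti-miR treatments, with the female-biased list at -0.31 and -0.81.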

How the data were processed

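The values came from 1 table of the whole series. Per the submitters' processing notes, reads were processed with TopHat2, featureCounts and edgeR on the mm9 build, and versions are not given in the sources used here. Its values are, per the file headers, 1 mean FPKM for a group, made by the authors. Beside them stand the deposited expression ratio of a comparison and its p-value from edgeR, raw and adjusted, per the file headers. The 6 columns of repeated or pooled FPKM means were not used. Blocks of the table were joined by their own gene symbols, since 1 block stands in another order.

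From the deposited means, log2 ratios of day 6 to day 3 were computed with a pseudocount of 1 FPKM. Genes that reached 1 FPKM on one of the days or both were kept, and ratios were counted at 2-fold and 1.5-fold lines. This was done in Python 3.11.15 with pandas 2.3.3 and numpy 2.4.6, and tested on simulated data. EdgeR p-values were taken at a threshold of 0.05 and not recomputed. Where means of 3 or 5 mice stand alone, neither depth nor spread between mice is known, and no interval can be given. The labels do not say more of the mice than their group, so edgeR p-values measure the spread between these mice alone.

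Genes were summarised over 39 lists, 11 of them markers of cell types, which name 880 genes, 8 of them not found among the symbols used here. The samples and lists were chosen with earlier results of these data known. Named genes are, per treatment, the 10 largest and the 10 smallest ratios, those past 2-fold in both treatments, up to 6 members of each list with the largest ratio and 4 with the highest FPKM, and Mt1, Mt2, Cyp7a1, Hao2 and Hspa5. Some named items are not reported here. Mup1, Mup14 and Cyp2c69 at the 1.5-fold line and other names outside this rule were chosen after their values were seen. Sex-biased classes were chosen after seeing the table. Alternatives were pseudocounts of 0.1 and 0.01, a minimum of 5 FPKM, 1 FPKM at both days, no minimum, centred ratios and a 1.5-fold line. Sequences were matched by symbol or microRNA name to RefSeq tables.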

Additional observations from a re-analysis of the deposited data

How the results depend on the processing

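Counts past 2-fold depended on the pseudocount, since a smaller one lets genes of low FPKM pass. With a pseudocount of 0.1 the counts were 41 in LNA-miR802 females, 98 in LNA-miR1948 males and 7 in the same direction in both, and with 0.01 they were 48, 106 and 8. At the 1.5-fold line they were 97, 149 and 18. With a minimum of 5 FPKM no gene was past 2-fold in the same direction in both (0), as C1rb reached no more than 3.53 FPKM in LNA-miR802 females. Past 2-fold in opposite directions lay 1 gene with a pseudocount of 0.1 and 2 with 0.01. With 5 FPKM, or with 1 FPKM at both days, 0 genes did. Without a minimum, with 1 FPKM at both days, with 5 FPKM and with centred ratios, the females had 18, 13, 12 and 17 genes and the males 47, 38, 34 and 48. The female-biased list in LNA-miR1948 males had a median of -1.62 with a pseudocount of 0.1 and -1.80 with 0.01. Where the sex-biased classes also had to differ at least 2-fold at both days, an alternative chosen after seeing the data, the male-biased medians were 0.26 in LNA-miR802 females and 0.26 in LNA-miR1948 males. With classes called at day 6 alone, likewise chosen afterwards, the medians were nearer to no change. They were 0.07 and 0.08 for male-biased genes and -0.11 and -0.13 for female-biased genes, in LNA-miR802 females and LNA-miR1948 males. No list median at or past 0.1, positive or negative, changed direction with either smaller pseudocount or with centring. The same held for the ratios of named genes past 2-fold. Medians and ratios nearer to no change were not checked for a change of direction. Both were recomputed under these settings alone. The males had 23 genes higher and 24 lower past 2-fold, against 21 and 17 with 1 FPKM at both days and 20 and 14 with 5 FPKM. Of 66 list medians, 62 moved by little with either smaller pseudocount and 66 with centring. Of 568 ratios of named genes, 555 and 553 kept their side of the 2-fold line with pseudocounts of 0.1 and 0.01, and 565 with centring. No paired analysis was possible because the table holds group means and no values per mouse, and leaving out each mouse was not run for the same reason. Depth is unknown, so a limit for low genes cannot be given.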

Other observations

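Genes of immune and splicing function were higher past 2-fold in LNA-miR1948 males. The MHC class I genes H2-Q6 and H2-Q8, which overlap in the annotation, averaged 5.64 and 5.47 FPKM at day 6 and 1.59 and 1.54 FPKM at day 3. Scrambled males had 1.92 and 1.86 FPKM at day 6 and 5.08 and 4.93 FPKM at day 3, the opposite order. C4a, a complement C4 gene of the male-biased class, averaged 21.03 FPKM at day 6 and 7.47 FPKM at day 3, against 14.2 and 10.0 FPKM in scrambled males. Cwc22, which encodes a splicing factor, averaged 26.1 FPKM at day 6 and 8.10 FPKM at day 3, against 9.71 and 8.23 FPKM in scrambled males. In LNA-miR802 females Cwc22 averaged 13.6 FPKM at day 6 and 20.0 FPKM at day 3. H2-Ea-ps, an MHC class II pseudogene, averaged 0.165 FPKM at day 6 and 3.38 FPKM at day 3 in LNA-miR802 females, and 2.45 FPKM at day 6 and 0.302 FPKM at day 3 in scrambled females. The mice were outbred, and no genotype was used here.

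Small RNA genes (Snord64, Snord45b and Mir292b in males, Snord68 in females) lay lower past 2-fold, at means of 5.32 FPKM or less, in libraries of poly(A) RNA. Mir7001 was higher in LNA-miR1948 males and Mir135a-1 in LNA-miR802 females, at log2 ratios of 1.01 and 1.13, and Mir135a-1 had 4.401 in scrambled females.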
